A study of Mus musculus with 7 samples.

Results

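Laminins, nidogens, perlecan and agrin form the non-collagen part of the basement membrane. They were followed here in sorted mouse sarcoma cells through 10 genes chosen by name (Lama2, Lama4, Lama5, Lamb1, Lamb2, Lamc1, Nid1, Nid2, Hspg2 and Agrn), out of 35727 genes in the count table. All 10 had a row and all 10 were among the 13740 genes with enough counts to test. The libraries came from 2 mouse models of UPS (undifferentiated pleomorphic sarcoma), a tumour of soft tissue whose cells resemble no one normal tissue. Both models share a p53 knockout background: mesenchymal stem cells of female C57/Bl6 p53KO mice were made to overexpress, by retrovirus, either Ccne1, which encodes cyclin E1, or Vgll3, which encodes a cofactor of TEAD transcription factors. The cells were then passaged under the skin of wild-type female C57/Bl6 mice and transplanted into experimental mice, from whose tumours RFP-positive cells were sorted. There were 4 libraries labelled p53 KO Ccne1 OE and 3 labelled p53 KO Vgll3 OE. The labels name 1 cell line per model, so the transduced gene and other differences between the lines cannot be told apart. They do not tie a library to a tumour or an animal, and the p-values therefore measure the scatter among libraries only. Age and the genotype of the last hosts are not in the labels.

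A laminin is a cross-shaped trimer of an alpha, a beta and a gamma chain, secreted only once an alpha chain has joined. The beta and gamma chains supply most of the short arms that link trimers into a sheet, and the end of the alpha chain holds the sites for integrins and dystroglycan. Nidogens tie the gamma 1 chain to type IV collagen and perlecan. Perlecan and agrin carry heparan sulfate, and agrin also bridges laminin and dystroglycan. Mesenchymal cells surround themselves with patches of this matrix, while muscle fibres, fat cells, Schwann cells and vessels are fully wrapped in it.

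Library totals ran from 21725890 to 53610300 counts, and the 10 genes had between 26 and 168574 counts in a library. Vgll3 was 50.7 ± 8.57 CPM (CPM is the count scaled to library size, with mean ± SD given) in the Ccne1-labelled libraries (n = 4) and 252 ± 34.6 CPM in the Vgll3-labelled ones (n = 3). Ccne1 was not higher under its own label, at 12.7 ± 5.61 against 14.9 ± 2.16 CPM (edgeR adjusted p = 0.609), so groups are called by label. Vgll3 replicate 3 stood apart from its group, with Pearson r across genes of 0.975 and 0.979 against 0.991 to 0.995 for the other pairs within a group. Beside the tissue label, 7 mesenchymal genes summed to 22089 to 27346 CPM in the Ccne1-labelled and 33919 to 40844 CPM in the Vgll3-labelled libraries. Among them Vim lay between 4150 and 15753 CPM and was lower in the Vgll3-labelled libraries (13973 ± 1413 and 4375 ± 238 CPM). Thy1, of the same list, was at most 9.42 CPM. In all libraries 5 epithelial markers summed to at most 4.73 CPM. Endothelial markers were present: 7 of them summed to 48.1 to 132 CPM in the Ccne1-labelled and 33.1 to 227 CPM in the Vgll3-labelled libraries, with the highest sum in Vgll3 replicate 3. In bulk libraries such as these, fewer cells of a type and less RNA per cell cannot be told apart.

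The set was remodelled in both directions. Of the 10 genes, 4 rose in the Vgll3-labelled libraries (Lama4, Nid2, Agrn and Hspg2), 3 fell (Lama5, Lamc1 and Lamb2) and 3 did not pass the test (Lama2, Nid1 and Lamb1). The test was edgeR's quasi-likelihood test at an adjusted p of 0.05 over all genes. Under the same rule 51.9% of all genes tested were called, 25.1% higher and 26.8% lower, so 7 calls among 10 genes is not far above this background. The groups of libraries did not overlap for 8 of the 10 genes, against 55.7% of all genes. The median log2 fold change of the 10 genes was 0.36, beside 0.01 over all genes tested, and the median of its size was 0.68 beside 0.43. All fold changes below are Vgll3-labelled over Ccne1-labelled.

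**Figure D1:**
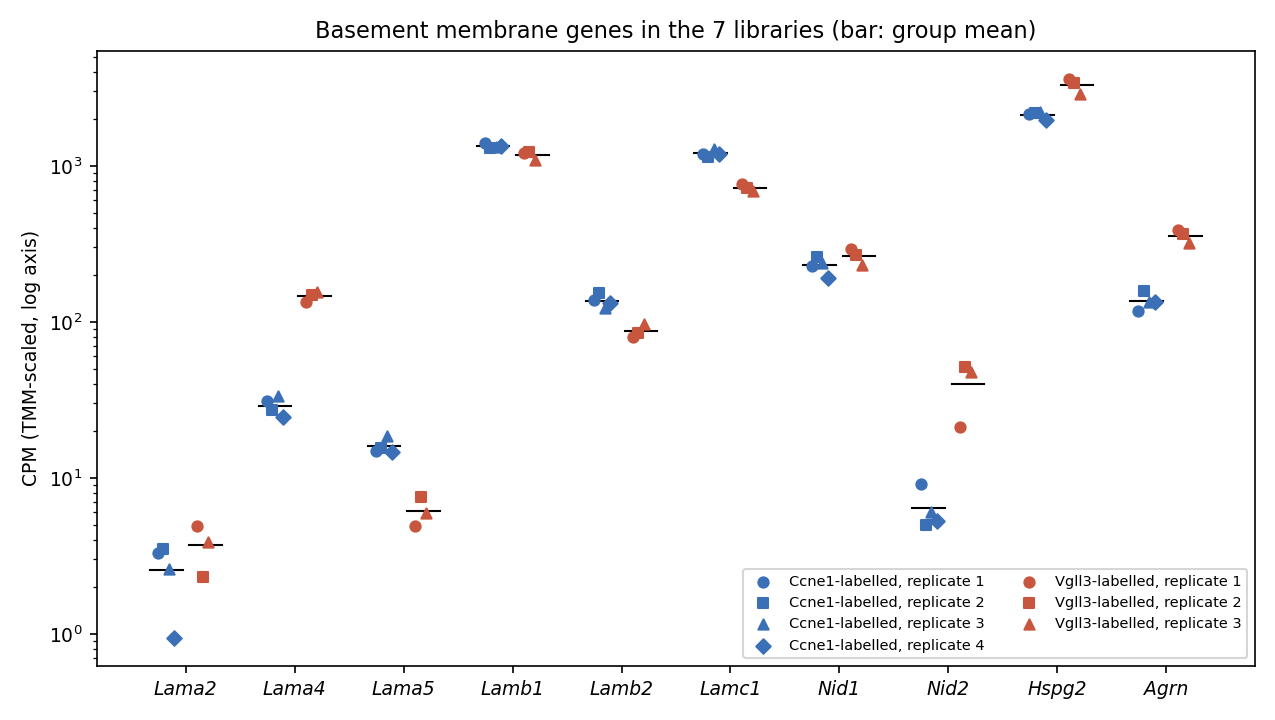
CPM of the 10 genes (log axis) in each of the 7 libraries, 4 Ccne1-labelled (blue) and 3 Vgll3-labelled (red), with symbols for the replicate number and a bar at each group mean. Lama4, Nid2, Agrn and Hspg2 sit higher in every Vgll3-labelled library, Lama5, Lamc1, Lamb2 and Lamb1 lower, and Lama2 and Nid1 overlap.

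The start regions of these genes are shown for the called members with an entry in the RefSeq promoter table (GRCm38.p6), which covered 7 of the 10 genes; Lama4, Lamc1 and Nid2 had none. Each line gives the 100 bases ahead of the first annotated start, 5′ to 3′ on the gene's strand, with CG pairs in capitals. Agrn is at chr4:156197489-156197588 (minus strand), Hspg2 at chr4:137468669-137468768 (plus), Lama5 at chr2:180225860-180225959 (minus) and Lamb2 at chr9:108479636-108479735 (plus).
Agrn: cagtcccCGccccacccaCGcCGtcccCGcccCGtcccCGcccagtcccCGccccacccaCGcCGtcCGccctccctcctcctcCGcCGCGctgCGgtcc
Hspg2: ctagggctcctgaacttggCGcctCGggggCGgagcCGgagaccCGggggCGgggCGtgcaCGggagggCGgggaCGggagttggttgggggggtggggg
Lama5: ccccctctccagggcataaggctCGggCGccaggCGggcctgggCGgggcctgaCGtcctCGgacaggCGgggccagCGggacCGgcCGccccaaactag
Lamb2: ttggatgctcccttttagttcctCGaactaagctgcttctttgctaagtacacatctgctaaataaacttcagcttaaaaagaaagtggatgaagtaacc

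The printed stretches held 14 CG pairs in Agrn, 10 in Hspg2, 10 in Lama5 and 1 in Lamb2. Over the whole 300-base windows, GC content was 83.3% in Agrn, 70.3% in Hspg2, 72.7% in Lama5 and 44.0% in Lamb2, beside a median of 52.7% over 32851 windows. Agrn and Hspg2, both above that median, rose, while Lama5, also above it, and Lamb2, below it, fell. Because Vgll3 is a cofactor of TEAD factors, the windows were searched on both strands for the TEAD core GGAATG, which 14.7% of all windows hold, and for the AP-1 motif TGANTCA, which 7.81% hold. Of 8 windows of the 7 genes (Agrn has 2), 1 held the TEAD core, that of Nid1, and 0 held the AP-1 motif. The Nid1 site began 165 bases before the start in the RefSeq table, which differs from the GENCODE gene bound given below, within chr13:13437417-13437462 (plus strand), shown with the core in capitals.
Nid1: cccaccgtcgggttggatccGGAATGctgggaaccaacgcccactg
A match in such a window is a description of its letters, and Nid1 was not among the genes called.

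Among the alpha chains, Lama4 rose and Lama5 fell. Lama4 encodes the short alpha 4 chain of vessel and mesenchymal laminins, which lacks the arm needed for sheet formation (ENSMUSG00000019846, GRCm38 chromosome 10, 38965515 to 39110188, protein-coding). It was 31.0, 27.2, 33.4 and 24.6 CPM in Ccne1 replicates 1 to 4 and 134, 148 and 156 CPM in Vgll3 replicates 1 to 3. Every Vgll3-labelled library was thus about 4-fold or more above the highest Ccne1-labelled one. The difference was 5.02-fold (log2 fold change 2.33 with SE 0.11; adjusted p by edgeR = 3.05e-06), larger in size than that of 94.7% of genes tested. Lama5 encodes the long alpha 5 chain of mature epithelial and vessel basement membranes (ENSMUSG00000015647, chromosome 2, 180176373 to 180225859, protein-coding). It was 14.8, 15.6, 18.6 and 14.7 CPM in the Ccne1-labelled libraries and 4.89, 7.56 and 5.99 CPM in the Vgll3-labelled ones, which did not overlap. It fell 2.60-fold (log2 fold change −1.38 with SE 0.16; adjusted p by edgeR = 0.000171). Lama2 encodes the alpha 2 chain of the muscle and Schwann cell basement membrane (ENSMUSG00000019899, chromosome 10, 26980036 to 27619758, protein-coding). It was scarce and uneven, at 3.28, 3.48, 2.60 and 0.945 CPM against 4.89, 2.30 and 3.88 CPM. The groups overlapped, and the 95% interval of the fold, 0.728 to 2.82, allowed a change in either direction (edgeR adjusted p = 0.338).

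Lamb1 and Lamc1 were far more abundant than any alpha chain gene, and the differences of the beta and gamma chain genes were smaller than those of Lama4 and Lama5. Lamc1, the gamma 1 chain found in most laminins (ENSMUSG00000026478, chromosome 1, 153218922 to 153332786, protein-coding), was 1186, 1144, 1274 and 1191 CPM in the Ccne1-labelled libraries. In the Vgll3-labelled libraries it was 769, 722 and 685 CPM, so the groups lay far apart compared with their spread. It fell 1.65-fold (log2 fold change −0.73 with SE 0.08; adjusted p by edgeR = 0.000108). Lamb2, the beta 2 chain of the neuromuscular junction, the kidney filter and vessels (ENSMUSG00000052911, chromosome 9, 108479736 to 108490530, protein-coding), was 137, 152, 122 and 131 CPM against 80.4, 84.6 and 97.4 CPM. It fell 1.55-fold (log2 fold change −0.64 with SE 0.10; adjusted p by edgeR = 0.000696), and the highest Vgll3-labelled library stayed below the lowest Ccne1-labelled one. Lamb1, the widespread beta 1 chain (ENSMUSG00000002900, chromosome 12, 31265234 to 31329644, protein-coding), was 1409, 1291, 1325 and 1344 CPM against 1202, 1232 and 1092 CPM. The groups did not overlap, but the difference was small (log2 fold change −0.19, SE 0.08) and did not pass the test (edgeR adjusted p = 0.0671); DESeq2 gave an adjusted p of 0.0476. The 95% interval of the Lamb1 fold was 0.774 to 0.990.

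The pair of nidogens differed from each other. Nid2 (ENSMUSG00000021806, chromosome 14, 19751265 to 19811787, protein-coding), the less widespread nidogen, was 9.15, 5.004, 6.01 and 5.30 CPM in the Ccne1-labelled libraries and 21.2, 51.5 and 47.7 CPM in the Vgll3-labelled ones. The lowest value of the second group, in Vgll3 replicate 1, was still above the highest of the first, in Ccne1 replicate 1. The rise was 6.35-fold with a wide 95% interval of 3.55 to 11.4 (log2 fold change 2.67 with SE 0.35; adjusted p by edgeR = 0.000801), the largest in size of the 10 genes. The last 437 bases of Nid2 overlap the gene Rtraf on the other strand, 8.45% of its 5174 exon bases. No source used here states the strand setting of the counting, so reads from those bases cannot be assigned with certainty; Rtraf itself was 105 ± 8.98 and 113 ± 20.9 CPM (edgeR adjusted p = 0.507). Nid1, the main nidogen (ENSMUSG00000005397, chromosome 13, 13437551 to 13512269, protein-coding), was 229, 260, 237 and 192 CPM against 294, 268 and 230 CPM. These ranges overlapped and the gene was not called (log2 fold change 0.20 with SE 0.12; adjusted p by edgeR = 0.181; 0.0518 without Vgll3 replicate 3).

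Both heparan sulfate proteoglycans rose. Hspg2, which encodes perlecan (ENSMUSG00000028763, chromosome 4, 137468769 to 137570630, protein-coding), had the highest CPM of the set, with 2150, 2175, 2225 and 1952 CPM in the Ccne1-labelled libraries and 3613, 3413 and 2902 CPM in the Vgll3-labelled ones. The groups did not overlap and the rise was 1.56-fold (log2 fold change 0.64 with SE 0.10; adjusted p by edgeR = 0.000684). Agrn, which encodes agrin, the organizer of acetylcholine receptors at the neuromuscular junction (ENSMUSG00000041936, chromosome 4, 156165290 to 156197488, protein-coding), was 117, 158, 135 and 133 CPM against 387, 364 and 318 CPM. Its rise was 2.62-fold (log2 fold change 1.39 with SE 0.11; adjusted p by edgeR = 2.48e-05), with every Vgll3-labelled library about 2-fold or more above the Ccne1-labelled ones. Gene-level counts do not separate the splice forms of agrin, of which only some cluster receptors.

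**Figure D2:**
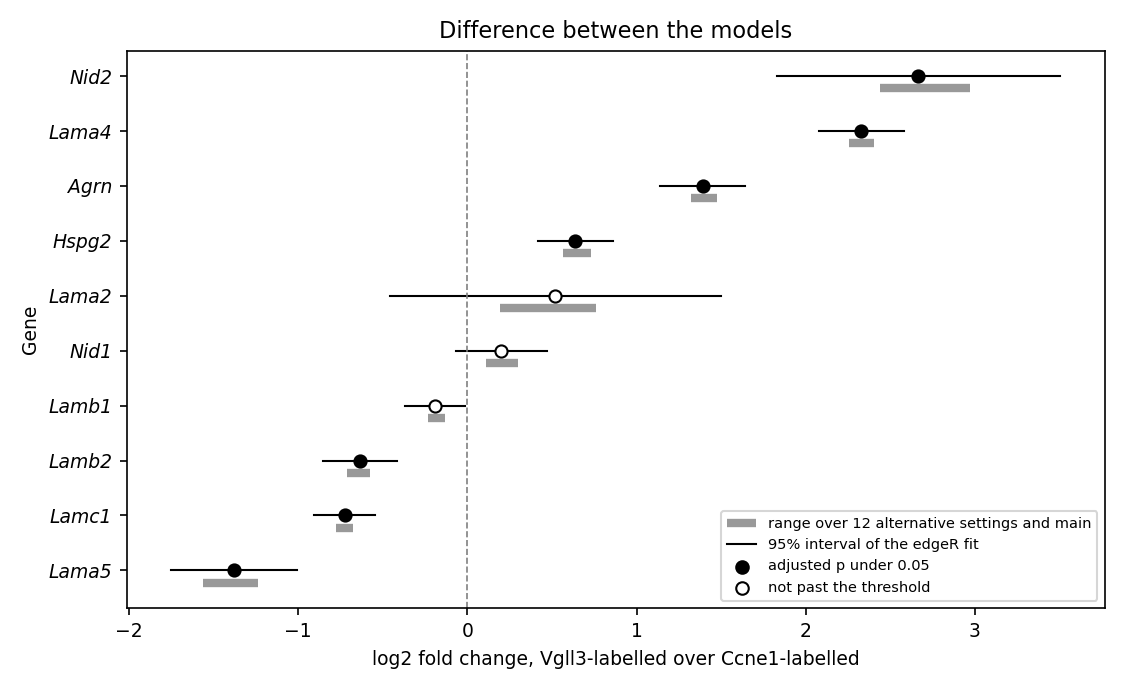
Log2 fold change of each gene, Vgll3-labelled over Ccne1-labelled, with its 95% interval (line), filled where the adjusted p was under 0.05, and in grey the range over the main and 12 alternative settings. Values run from −1.38 for Lama5 to 2.67 for Nid2, and no grey range crosses 0.

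Vgll3 replicate 3 was the lowest of its group for Lamb1, Lamc1, Nid1, Hspg2 and Agrn and the highest for Lama4 and Lamb2. Without it the counts stayed at 4 higher and 3 lower, and the log2 fold changes were 2.28 for Lama4, 2.53 for Nid2, 1.48 for Agrn, 0.73 for Hspg2, −1.37 for Lama5, −0.68 for Lamc1 and −0.71 for Lamb2.

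Per kilobase of exon, a scale for comparing genes with each other, the laminin genes fell into a large pool of beta and gamma chains and a small pool of alpha chains. In the Ccne1-labelled libraries Lamc1 was 145 ± 6.58 and Lamb1 135 ± 4.99 CPM per kb, while Lama4 was 2.41 ± 0.32, Lama5 1.40 ± 0.16 and Lama2 0.16 ± 0.07 CPM per kb. In the Vgll3-labelled libraries the order of the same genes was Lamb1 (119 ± 7.42), Lamc1 (87.7 ± 5.12), Lama4 (12.1 ± 0.952), Lama5 (0.54 ± 0.12) and Lama2 (0.23 ± 0.08). Lamb2 stood at 22.3 ± 2.05 and 14.4 ± 1.46, Nid1 at 33.1 ± 4.08 and 38.0 ± 4.64 and Nid2 at 1.23 ± 0.367 and 7.75 ± 3.19 CPM per kb. Perlecan was 149 ± 8.38 and 231 ± 25.7 and agrin 14.6 ± 1.84 and 38.4 ± 3.79 CPM per kb. In the Ccne1-labelled libraries Hspg2 and Lamc1 had overlapping levels per kb, and in the Vgll3-labelled libraries Hspg2 was above every other member. The order of Lamb1 depends on the length used. Per kb of the longest coding transcript, Lamb1 (232 in the Ccne1-labelled and 203 in the Vgll3-labelled libraries) was above Lamc1 (157 and 95.2) in both groups. On that scale it was also above Hspg2 (150) in the Ccne1-labelled libraries.

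Summed over all 5 alpha chain genes, the alpha pool was 4.01 ± 0.469 CPM per kb in the Ccne1-labelled and 13.8 ± 1.20 in the Vgll3-labelled libraries, while the gamma pool was 150.2 ± 6.61 and 90.3 ± 5.42. The gamma pool was therefore 34.6 to 42.9 times the alpha pool in the Ccne1-labelled libraries and 5.81 to 7.71 times in the Vgll3-labelled ones, with no overlap. Lama4 made up 59.9% ± 2.06 of the alpha pool in the first group and 87.4% ± 1.67 in the second, and Lama5 34.9% ± 2.20 and 3.88% ± 0.648. These levels depend on the length used: per kb of the longest coding transcript, a setting added after seeing the data, Lama4 made up 73.6% and 92.6%, Lama5 21.5% and 2.06%, and the gamma pool was 25.6 and 3.84 times the alpha pool on average. The shift towards Lama4 and the smaller excess of gamma over alpha were found with both lengths.

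**Figure D3:**
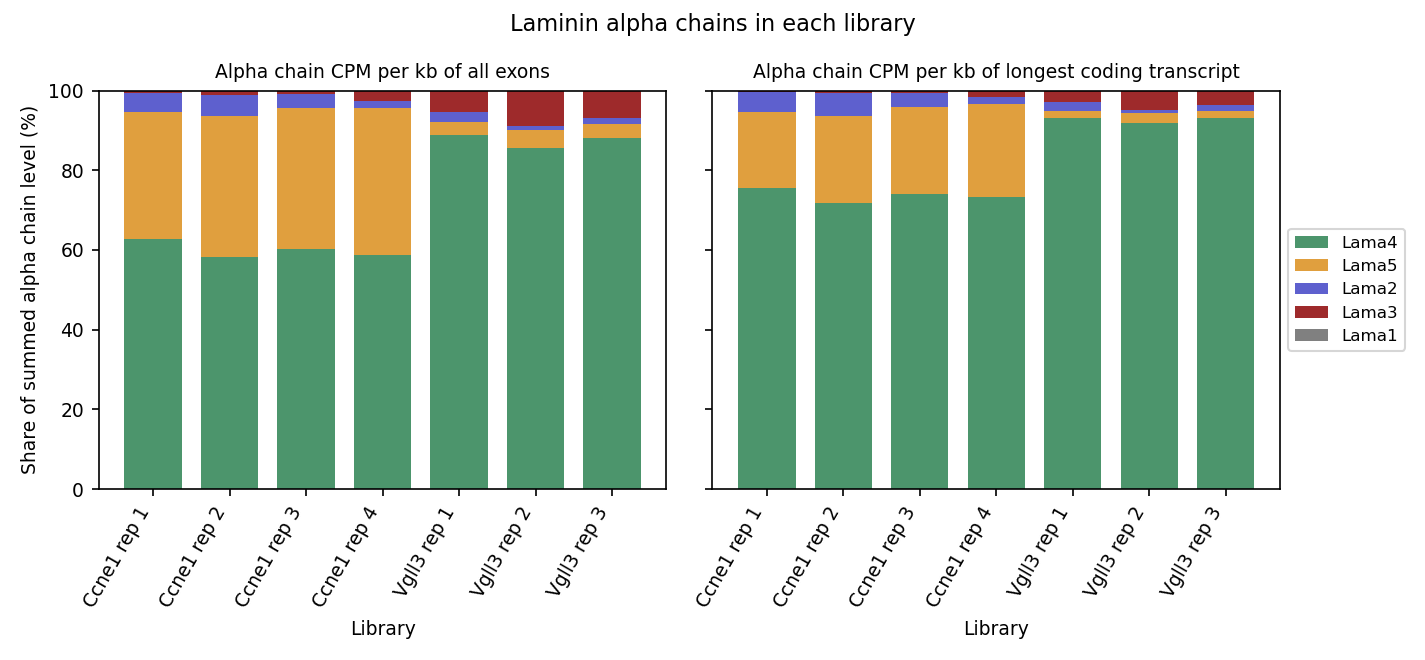
Share of each alpha chain gene in the summed alpha chain level (%) of each library, per kb of all exons (left) and per kb of the longest coding transcript (right). Lama4 is the largest part of every bar, and the Lama5 part is 31.8% to 37.0% in the 4 Ccne1-labelled libraries and 3.44% to 4.63% in the 3 Vgll3-labelled ones on the left.

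Ratios of counts within a library do not depend on scaling between libraries, and their differences do not depend on gene length. Of 10 such ratios all 10 had groups that did not overlap. For 9 the two-sided exact permutation p was 0.0286 (Benjamini-Hochberg adjusted p = 0.0317), the smallest p that 4 against 3 libraries allow. Every ratio holds a gene that was called by itself, and several share a gene, so the ratios restate those differences and are not separate tests. Among single genes 55.7% had groups that did not overlap, and the share among ratios of other genes was not computed. The widest shift was in Lama5 to Lama4, whose log2 ratio was −0.86 ± 0.14 and −4.59 ± 0.26 (SD), a difference of −3.72, or 13.2-fold. Lamc1 to Lamb1, which are partners in most trimers, went from −0.16 ± 0.08 to −0.70 ± 0.07, so that gamma 1 counts were 0.842 to 0.962 times beta 1 counts in the first group and 0.586 to 0.640 times in the second. Lamb2 to Lamb1 shifted by −0.44. The exception was Lama2 to Lama4, with log2 ratios of −3.64 ± 0.75 and −5.36 ± 0.61, where the exact permutation p was 0.0571, as was its adjusted value.

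The same ratios set the linkers and proteoglycans against laminin. Nid2 to Nid1 had a log2 ratio of −5.20 ± 0.44 and −2.82 ± 0.85, a difference of 2.39, and Nid2 counts stayed below Nid1 counts in all 7 libraries. Nid1, which was not called by itself, rose relative to Lamc1 by 0.93 (log2 ratio −2.39 ± 0.20 and −1.46 ± 0.10). Nid2 to Lamc1 differed by 3.32, Hspg2 to Lamc1 by 1.36 (from 0.83 ± 0.09 to 2.19 ± 0.09) and Agrn to Hspg2 by 0.76 (from −3.97 ± 0.19 to −3.21 ± 0.02). Nidogens and perlecan were thus more abundant relative to the gamma 1 chain in every Vgll3-labelled library than in any Ccne1-labelled one.

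**Figure D4:**
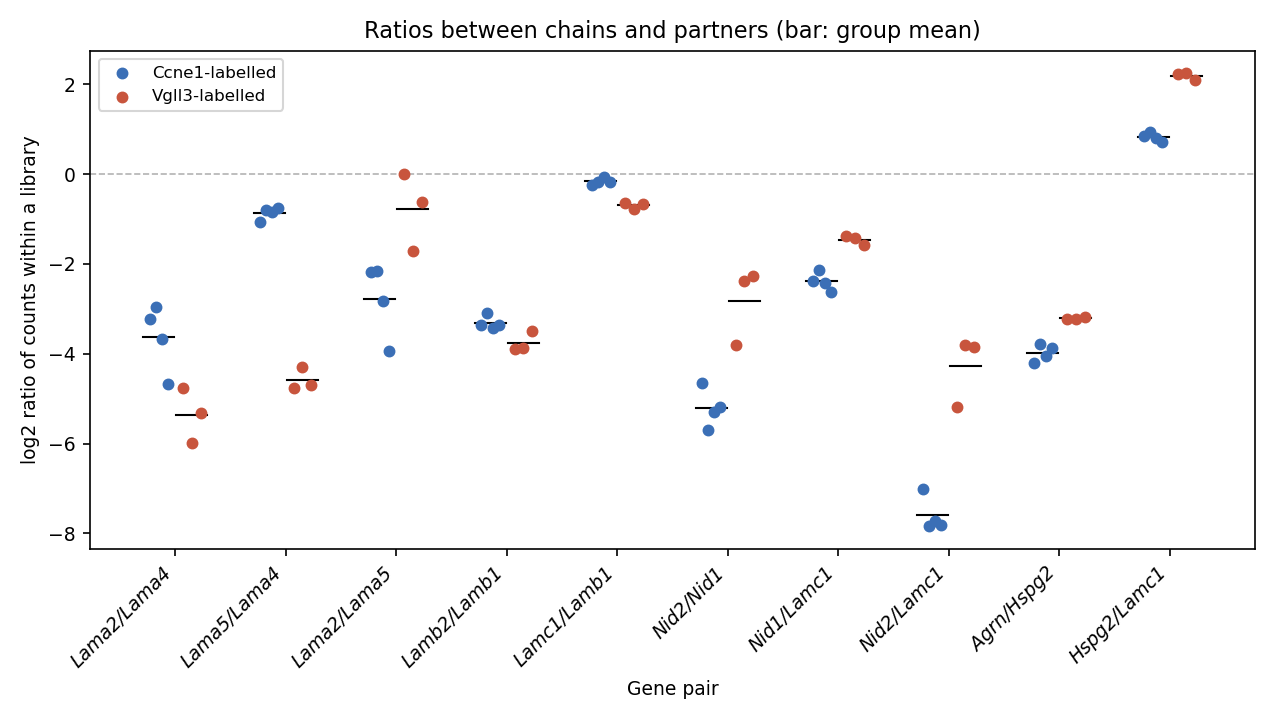
Log2 ratio of counts within each library for 10 gene pairs (x axis), with Ccne1-labelled libraries in blue (n = 4), Vgll3-labelled in red (n = 3) and a bar at each group mean. The groups are separate for all 10 pairs, narrowly for Lama2/Lama4 and Lamb2/Lamb1, and furthest apart for Lama5/Lama4.

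The laminin chains outside the set were mostly low, and Lama3, the alpha 3 chain of epithelial laminin, was raised. Of 5 such genes 3 were tested, and Lama1 and Lamc3 had at most 3 and 17 counts in a library. Lama3 was 0.227, 0.404, 0.495 and 0.981 CPM in the Ccne1-labelled libraries and 7.31, 13.6 and 10.6 CPM in the Vgll3-labelled ones (log2 fold change 4.31 with SE 0.41; adjusted p by edgeR = 6.96e-05). Lamb3, the beta chain that pairs with it, was 2.03 ± 0.322 and 1.94 ± 0.753 CPM, a difference that did not pass the test (adjusted p by edgeR = 0.869). Lama3 was 1.28% ± 0.924 and 7.005% ± 1.72 of the alpha pool per kb of exon, and 0.808% and 3.80% per kb of the longest coding transcript.

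Receptors for laminins, perlecan and agrin were mostly lower in the Vgll3-labelled libraries. Of 11 listed 10 were tested, of which 6 fell, 1 rose and 3 did not pass, with a median log2 fold change of −0.35 beside 0.01 over all genes. Over all genes tested 26.8% were called lower and 25.1% higher. The integrin chain genes that fell included Itga3 (alpha 3) from 171 ± 14.8 to 26.8 ± 9.11 CPM (log2 fold change −2.68 with SE 0.22; adjusted p by edgeR = 6.48e-05), Itga7 (alpha 7, of muscle) from 452 ± 39.3 to 221 ± 53.1 CPM, Itga6 (alpha 6) from 152 ± 14.7 to 100.2 ± 14.9 CPM and their shared partner Itgb1 (beta 1) from 1584 ± 113 to 1153 ± 185 CPM. Itga1 and Itga2, whose products bind both collagen and laminin, did not pass the test: Itga1 was 7.71 ± 2.15 and 13.3 ± 4.797 CPM (adjusted p by edgeR = 0.0527) and Itga2 0.992 ± 0.545 and 0.913 ± 0.389 CPM. Lrp4, the receptor through which agrin acts on muscle, rose from 124 ± 20.7 to 217 ± 6.07 CPM (edgeR adjusted p = 0.000631), while Musk, its partner kinase, had at most 13 counts in a library. Of the 6 lower calls 4 were left without Ccne1 replicate 2, 3 or 4 or Vgll3 replicate 2, where Itgb4 and Dag1 lost theirs; without Vgll3 replicate 1, 2 receptors rose.

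Dystroglycan binds laminin, perlecan and agrin through a sugar chain that a series of enzymes builds. Of 13 such enzyme genes 12 were tested: 3 rose, 5 fell and 4 did not pass (median log2 fold change −0.16). The background over all genes tested was 25.1% higher and 26.8% lower, so the share that rose was near it. B4gat1, whose product starts the laminin-binding repeat, fell from 56.4 ± 4.24 to 23.8 ± 3.21 CPM (edgeR adjusted p = 3.43e-05). Pomgnt2 fell from 14.9 ± 0.519 to 6.72 ± 0.830 CPM and the kinase gene Pomk from 23.1 ± 1.55 to 16.3 ± 0.83 CPM. Rxylt1 rose from 23.2 ± 2.63 to 34.03 ± 2.48 CPM and Pomgnt1 from 64.7 ± 1.36 to 82.3 ± 0.870 CPM.

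Perlecan and agrin both carry heparan sulfate chains. Of 13 genes for building them, all tested, 3 rose, 7 fell and 3 did not pass (median log2 fold change −0.23). Beside this, 25.1% of all genes tested rose and 26.8% fell. Xylt1, one of the xylosyltransferases that add the first sugar to the core protein, was 114, 136, 125 and 124 CPM in the Ccne1-labelled libraries and 3.79, 5.21 and 17.2 CPM in the Vgll3-labelled ones (log2 fold change −3.85 with SE 0.57; adjusted p by edgeR = 0.00185; −4.81 without Vgll3 replicate 3, the highest of its group). Extl3, a chain starter, fell from 149.8 ± 11.9 to 104 ± 4.22 CPM, and the sulfotransferase genes Hs2st1 from 175 ± 3.29 to 116 ± 16.9 CPM and Hs6st1 from 196 ± 20.04 to 133 ± 17.6 CPM. The genes that rose did so by small amounts: Ext1, of the chain polymerase, from 395 ± 23.4 to 521 ± 101 CPM, Ndst1 from 194 ± 3.42 to 251 ± 25.4 CPM and B3galt6 from 12.9 ± 1.07 to 15.9 ± 1.52 CPM. The call for Ext1 (edgeR adjusted p = 0.0262) was lost when replicate 1, 2 or 4 of the Ccne1-labelled group or replicate 1 or 2 of the Vgll3-labelled group was left out (adjusted p up to 0.1004), where 1 gene rose. The call for B3galt6 (edgeR adjusted p = 0.0437) was lost in the same cases and with Ccne1 replicate 3 left out (adjusted p up to 0.159), and also with DESeq2 (0.0605) and with no low-count filter (0.0895). Among the genes that fell, the call for B3gat3 (edgeR adjusted p = 0.0336) was also lost in several settings. These were Ccne1 replicate 1, 3 or 4 or Vgll3 replicate 1 or 3 left out, DESeq2 and no low-count filter.

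Other basement membrane genes also moved both ways. Of 23 listed 18 were tested, of which 7 rose, 7 fell and 4 did not pass (median log2 fold change 0.16). Among all genes tested 25.1% rose and 26.8% fell. Col4a5, a minor type IV collagen chain, rose from 5.94 ± 0.416 to 49.7 ± 5.59 CPM (log2 fold change 3.07 with SE 0.10; adjusted p by edgeR = 1.02e-06), and Col18a1, the collagen that yields endostatin, from 766 ± 33.2 to 2057 ± 452 CPM. Ntn4, a netrin that binds laminin gamma 1 and loosens the laminin sheet, rose from 2.97 ± 0.423 to 11.4 ± 3.59 CPM, and Sparc, which binds collagen, roughly doubled (edgeR adjusted p = 0.000154). Npnt, the integrin ligand nephronectin, fell from 127 ± 28.4 to 17.2 ± 2.43 CPM, Pxdn, which crosslinks type IV collagen, from 1090 ± 49.3 to 677 ± 51.1 CPM, Tinagl1 from 10.9 ± 3.68 to 4.23 ± 0.545 CPM and Smoc2 from 2.25 ± 0.866 to 0.218 ± 0.134 CPM. In Vgll3 replicate 3 Smoc2 was 0.0669 CPM, under the 0.105 CPM of a count of 3 in that library. The main collagen IV chains Col4a1 and Col4a2, named after their values were seen, are the sheet that nidogens tie to laminin. Per kb of exon Col4a1 was 368 to 402 in the Ccne1-labelled libraries, above every laminin gene, and 25.1, 40.8 and 129 CPM per kb in Vgll3 replicates 1 to 3, so that it was below Lamc1 in 2 of these libraries and above it in replicate 3. Col4a1 fell by 2.54 on the log2 scale (edgeR adjusted p = 0.0118), and its log2 fold change was −3.52 without Vgll3 replicate 3. Col4a2 fell by 2.52 (edgeR adjusted p = 0.0173), not called without Vgll3 replicate 2 (adjusted p = 0.0564), and its log2 fold change was −3.61 without Vgll3 replicate 3.

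**Figure D5:**
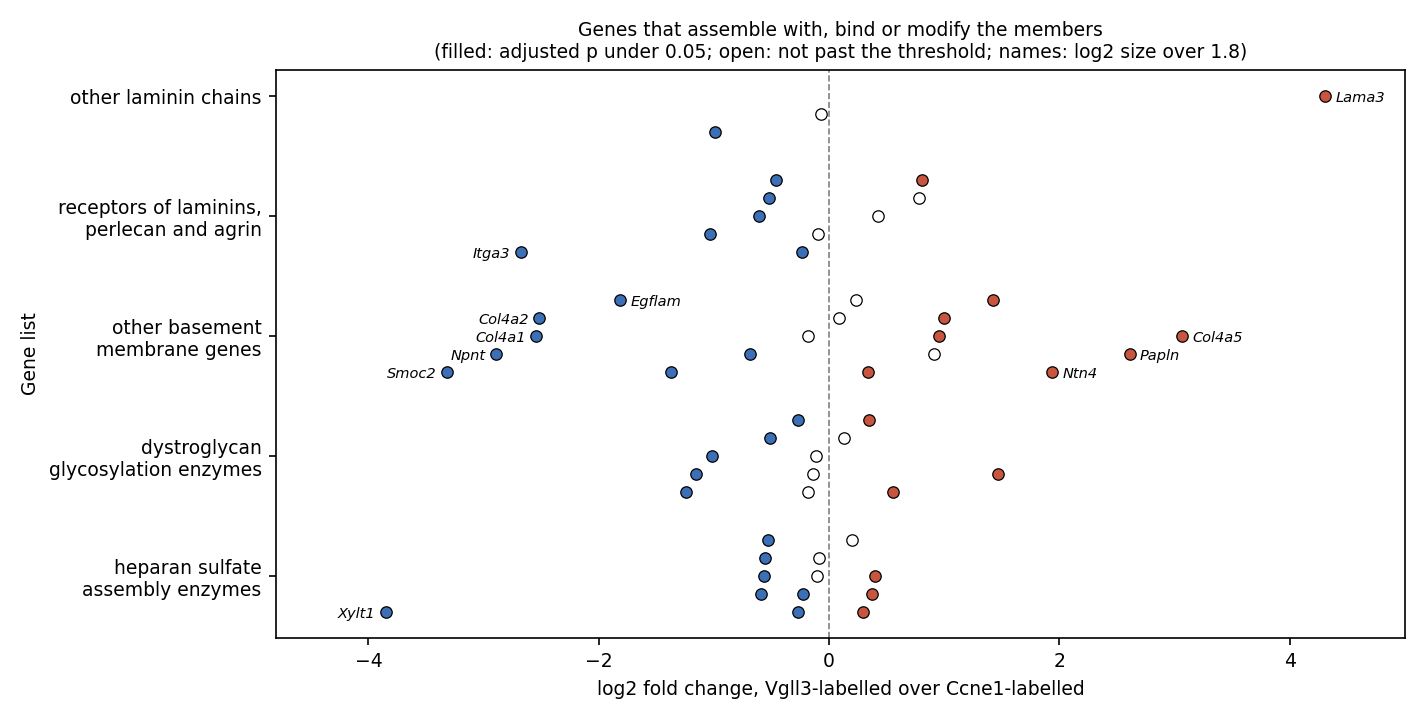
Log2 fold change, Vgll3-labelled over Ccne1-labelled, of the tested genes in 5 lists of partners, 1 point per gene, filled where the adjusted p was under 0.05. The receptors have 6 lower and 1 higher call and the other basement membrane genes 7 and 7. Of all genes tested 26.8% were called lower and 25.1% higher. Lama3 and Xylt1 lie at the ends, at 4.31 and −3.85.

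Several host cell types make these genes, so their markers are set beside the results. Of 7 endothelial markers 0 were called with edgeR (0 also at an unadjusted p of 0.05), where 51.9% of all genes tested were called. The SEs of their log2 fold changes were wide, from 0.42 (Vwf) to 0.88 (Pecam1), so a moderate difference could go uncalled. Their sums overlapped between the groups (exact permutation p = 0.714). In Vgll3 replicate 3 Pecam1 alone was 184 CPM, against 19.6 and 35.3 CPM in the other libraries of its group. Within the Vgll3-labelled group Lama4 (134, 148 and 156 CPM) and the endothelial sum (33.1, 62.6 and 227 CPM) had the same order of libraries. So did Lamb2 (80.4, 84.6 and 97.4 CPM), Col4a1 (187, 305 and 963 CPM) and Col4a2 (129, 211 and 750 CPM). Within the Ccne1-labelled group Lama4 (31.0, 27.2, 33.4 and 24.6 CPM) and the sum (132, 48.1, 79.5 and 56.5 CPM) did not share an order. Lamb2 and Col4a1 did not follow the sum there either, while Col4a2 (2194, 1909, 2191 and 2016 CPM) had its order. The part of endothelial RNA in the levels of these genes was not tested. Pericyte markers (6) summed to 459 to 551 and 145 to 172 CPM, nearly all from Cspg4, which fell from 514 ± 42.4 to 140 ± 10.2 CPM, while Rgs5 rose from 0.543 ± 0.328 to 5.95 ± 1.89 CPM. Smooth muscle markers (5) summed to 79.4 to 156 and 184 to 306 CPM, led by Acta2, which rose from 74.7 ± 35.1 to 226 ± 59.9 CPM, while Tagln fell from 27.8 ± 4.21 to 12.5 ± 4.97 CPM and Cnn1 was 10.1 ± 1.85 and 11.2 ± 2.31 CPM. Macrophage markers (7) summed to 58.7 to 78.7 and 10.8 to 20.3 CPM, led by Cd14, which fell from 59.4 ± 7.89 to 6.39 ± 1.85 CPM. For the pericyte, smooth muscle and macrophage sums the exact permutation p was 0.0286 each. The other 5 macrophage markers tested were not called, among them Ptprc (0.892 ± 0.574 and 1.84 ± 1.05 CPM) and Csf1r (1.08 ± 0.593 and 1.33 ± 0.936 CPM). Adipocyte (4) and skeletal muscle fibre (5) markers summed to at most 2.29 and 5.51 CPM in any library, led by Fabp4 and Acta1, and Cidec was at 0 in all 7; epithelial markers were led by Krt8. Of the 7 mesenchymal genes 3 rose (Col1a1, Col1a2 and Pdgfrb), 3 fell (Vim, Pdgfra and Prrx1) and 1 did not pass (Thy1), where 51.9% of all genes tested were called. The part of the cells these pericyte, smooth muscle and macrophage markers stand for in the results above was not tested.

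The genes with the most similar pattern were found by the root mean square difference of centred log2 CPM over the 7 libraries, among 8826 genes of at least 10 CPM. For Lamc1 these were Emc7 (0.03), Dynlrb1 (0.04), Dstn (0.04), Hsd17b10 (0.05) and Gm42517 (0.05), with log2 fold changes from −0.74 to −0.69. For Nid2 they were Aspn (0.39), Cyp51 (0.40), Lama4 (0.41), Fam110b (0.41) and Mid1 (0.42), with log2 fold changes from 2.13 to 3.07. Nid2 thus had another member, Lama4, among its 5 nearest genes, though at a distance many times that of the genes nearest to Lamc1. The measure includes the difference between the groups, so genes of like fold change lie near each other and the nearness largely repeats the fold changes. Between members, the closest pair was Lamb2 and Lamc1 (0.18), followed by Nid1 and Hspg2 (0.23).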

How the data were processed

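The authors deposited estimated counts by Ensembl gene for 7 polyA RNA-seq libraries, made with Salmon and the mouse build mm10, per the submitters' processing notes. For Salmon's version, annotation and strand setting: not given in the sources used here. All values were whole, so 0 needed rounding. Names, coordinates and exon lengths came from GENCODE M21 (GRCm38, the same build). Genes were tested with edgeR 4.0.16 in R 4.3.3 (filterByExpr, TMM scaling, robust quasi-likelihood F test, Benjamini-Hochberg over all genes tested); SEs were derived from the fold change and F. Alternatives were RLE scaling, DESeq2 1.42.0, limma-voom (limma 3.58.1), no low-count filter, the replicate number as a block, and each library left out. Ratios used a pseudocount of 0.5. A count of 3, the limit that a count of 0 allows, was 0.0560 to 0.138 CPM, counting error only. The gene test was also run on simulated counts, in which fewer genes changed than were called here and scatter was set equal for all genes and libraries. That run checks the code and not the error rate in these data. The members and lists were chosen with earlier results of these data known. Named partners were, per list and direction, the called gene with the largest change and up to 3 more by adjusted p, and per marker list the gene with the highest CPM; some of these are not reported here.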

Additional observations from a re-analysis of the deposited data

Results flagged for a closer look

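Among the 4 Ccne1-labelled libraries, replicate 1 stood apart from the others in the log2 ratio of Nid2 to Lamc1 counts, at −7.015 against −7.83, −7.73 and −7.81. Its gap took up more of the group's range than Dixon's 95% critical value for 4 samples allows. This was 1 of 20 such groups examined, and chance alone gives about 1 in 20.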

How the results depend on the processing

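Across the 12 alternatives 4 members were called higher in each and 3 lower in each, except that DESeq2 called 4 lower, adding Lamb1 (adjusted p = 0.0476). The members' log2 fold changes kept their sign throughout, and those of the 7 called genes stayed called, with Nid2 between 2.44 and 2.97 and Lama5 between −1.56 and −1.24. All differences of ratios kept their sign and moved by less than 1 SD when a library was left out, with a pseudocount of 0 or 5, or with replicate numbers matched. The same replicate numbers did not pair the libraries: deviations from the group means correlated at −0.236, −0.218 and −0.124 for numbers 1 to 3, and no library correlated best with its own number. With the replicate block 4841 genes were called in place of 7133, and the members' counts stayed at 4 and 3; calls of partners including Itgb1, Itgb4, Dag1, Fbln1, Egflam, Xylt2, B3gat3, Ext1, Ndst1 and B3galt6 ended there. Depth limits Lama2 most, with 26 counts in its lowest library.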
